A study of Mus musculus with 2 samples.

Results

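Collagen is not finished when its chains are translated. Prolyl 4-hydroxylases hydroxylate prolines so that the triple helix is stable at body temperature, lysyl hydroxylases modify lysines, and the chaperone HSP47 (Serpinh1) holds the folded helix in the endoplasmic reticulum. Outside the cell the procollagen ends are cut off, a step that the procollagen enhancer Pcolce accelerates, and lysyl oxidases then turn lysines into aldehydes that link neighbouring collagen and elastin molecules. In adipose tissue these products are known mainly from fibroblasts and other mesenchymal cells. Here 10 such genes were examined in whole omentum, an abdominal fat depot that carries the lymphoid clusters called milky spots. They were picked by symbol for their function, with earlier results of these data known. The enzymes were the lysyl oxidases Lox, Loxl1 and Loxl2, the lysyl hydroxylases Plod1, Plod2 and Plod3, and the prolyl 4-hydroxylase catalytic subunits P4ha1 and P4ha2. The chaperone Serpinh1 and the enhancer Pcolce completed the list. All 10 were listed among the 24346 gene symbols measured.

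Whole omenta of WT mice and of Postn-DTR mice were compared by RNA-seq 5 days after diphtheria toxin (DT), which both genotypes received. Postn-DTR mice are heterozygotes made on C57BL/6 that carry a mutated diphtheria toxin receptor in the first coding exon of Postn, so that any cell with an active Postn promoter is a target of DT, including the Aldh1a2+ fibroblastic reticular cells (FRCs) the study set out to ablate. There was 1 library per genotype, and the number, age and sex of the mice behind each library were not stated. No spread between animals was therefore measured, no test of the genotypes was possible, and every difference below describes these 2 libraries.

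Levels are given as FPKM, that is, sequenced fragments relative to the length of the transcript and the depth of its library, so that levels can be compared between genes. A change is the difference of log2(FPKM + 1), Postn-DTR minus WT, and it understates the difference of genes with low FPKM. A fold is the ratio of the deposited FPKM. Genes were compared when their mean FPKM was at least 1, which held for 13127 genes and for 10 of the 10 collagen processing genes. A gene was called 2-fold lower or higher when its change reached 1 in size, and this was the case for 3.12% of the genes compared in the lower and 3.88% in the higher direction.

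The libraries differed in more than the stroma. Postn itself (chromosome 3, 54361109 to 54391037, plus strand, GRCm38) was at 58.3 FPKM in WT and 16.2 in Postn-DTR. The receptor is inserted into Postn in these mice, and the part of the inserted allele in this value was not tested. The denominators behind the FPKM were similar, estimated at 23250000 fragments in WT and 24050000 in Postn-DTR. Whether they equal the sequenced depth was not tested. Markers of adipocytes, mesothelium and fibroblasts were present in both libraries, with 0 of their 19 genes at 0. Of 9 fibroblast markers 3 were 2-fold lower and none higher, 6 had a change below 0, and the median change was -0.45. Their summed FPKM was 3084 in WT and 2781 in Postn-DTR, most of it from Dcn (1875 and 2152). Without Dcn, left out after the data were seen, the other 8 summed to 1209 and 629, 1.92-fold lower. That sum hides differences, since Pdgfra (25.96 and 29.23 FPKM) and Pi16 (25.25 and 28.98) had changes above 0, as Dcn had. It also includes Col1a1 (422.4 and 313), which is counted again among the collagens below. Smooth muscle and pericyte markers summed to 162.2 and 76.0 FPKM (2 of 6 genes 2-fold lower), and macrophage markers to 2869 and 4616 (3 of 6 genes 2-fold higher). Myofibroblast markers, Postn among them, summed to 282 and 280.3 FPKM. Of the 4 compared, 1 (Postn) was 2-fold lower and 3 had a change above 0. T cell markers summed to 40.3 and 16.1 FPKM (3 of 4 genes 2-fold lower) and B cell markers to 299.7 and 223.8 (1 of 3). Pancreatic acinar genes summed to 10672 FPKM in WT and 18.4 in Postn-DTR. Their part in the values below was not tested. In whole tissue, fewer cells of a type and less RNA per cell cannot be told apart.

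Among the collagen processing genes, 2 were 2-fold lower in Postn-DTR (Serpinh1 and Pcolce), 1 was 2-fold higher (Lox), and 7 stayed within 2-fold. Over all genes compared, 3.12% were 2-fold lower and 3.88% higher. With 5 changes below 0 and 5 above 0, the genes had no common direction, and their median change of -0.13 stood beside a median of 0.02 over all genes compared. At a 1.5-fold limit on the log2(FPKM + 1) scale 3 of the 10 were lower and 2 higher (Plod2, 1.54-fold lower in FPKM, stayed just inside), where 8.84% and 9.86% of all genes were, and at 3-fold 0 were lower or higher (1.17% and 1.52% of all genes). Rescaled to one total FPKM without acinar genes, 7 of the 10 changes were below 0 and 3 above, with 3 genes 2-fold lower (P4ha1 added) and 1 higher, beside 5.71% and 2.29% of all genes. The summed FPKM of the 10 genes was 936.5 in WT and 626.2 in Postn-DTR. The difference lay with the 2 most abundant, since Serpinh1 and Pcolce made up 71.3% of the sum in WT and 45.4% in Postn-DTR, while the remaining 8 genes summed to 268.4 and 341.8 FPKM.

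**Figure D1:**
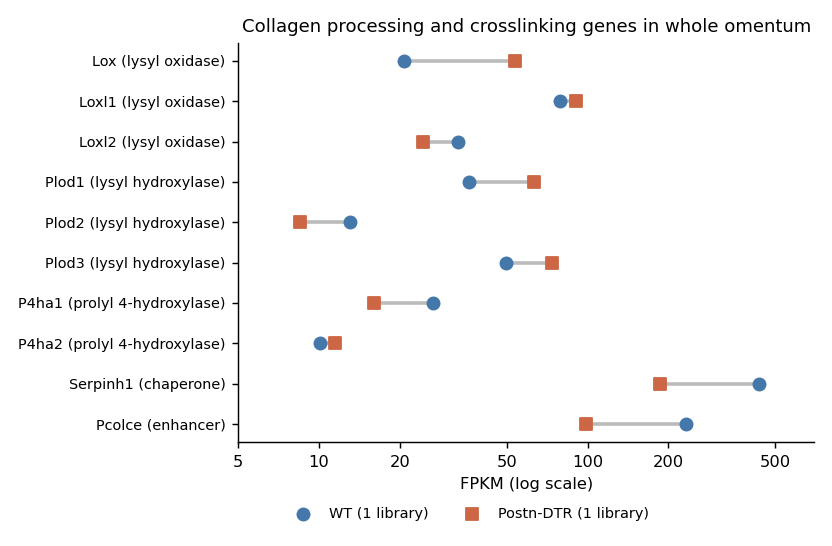
FPKM of each collagen processing gene (log axis) in the WT library (circles) and the Postn-DTR library (squares), 1 library each, joined by a line. Serpinh1 and Pcolce have the highest levels in both libraries and are lower in Postn-DTR, at 185.7 and 98.7 against 435.7 and 232.4, whereas Lox is higher, at 53.9 against 20.7.

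To show promoter DNA of the genes that stood furthest apart, the 250 bases before the RefSeq start of transcription are printed for Serpinh1 and Pcolce, which were lower, and for Plod1 and Plod3, which had the highest changes among the genes with an entry (RefSeq, GRCm38.p6, 5′ to 3′ on the strand of the gene). RefSeq promoters were matched for 6 of the 10 genes, these 4 together with P4ha1 and P4ha2. Lox, Loxl1, Loxl2 and Plod2 had no entry. Capitals mark ACGTG or GCGTG on either strand (CACGT and CACGC on the printed strand), the core letters of the hypoxia response element, to which hypoxia-inducible factors bind and through which several hydroxylase and lysyl oxidase genes are known to be induced. The windows are Serpinh1 at chr7:99353240-99353489 (minus strand), Pcolce at chr5:137611405-137611654 (minus), Plod1 at chr4:147936777-147937026 (minus) and Plod3 at chr5:136986769-136987018 (plus). The Pcolce window, and that searched for P4ha2, lie inside the gene spans of GENCODE given below, which begin further upstream than the RefSeq start.
Serpinh1: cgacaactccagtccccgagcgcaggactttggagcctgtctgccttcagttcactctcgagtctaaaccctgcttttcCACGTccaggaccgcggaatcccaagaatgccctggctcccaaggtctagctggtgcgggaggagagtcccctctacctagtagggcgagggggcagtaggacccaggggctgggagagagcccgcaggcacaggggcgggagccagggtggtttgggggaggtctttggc
Pcolce: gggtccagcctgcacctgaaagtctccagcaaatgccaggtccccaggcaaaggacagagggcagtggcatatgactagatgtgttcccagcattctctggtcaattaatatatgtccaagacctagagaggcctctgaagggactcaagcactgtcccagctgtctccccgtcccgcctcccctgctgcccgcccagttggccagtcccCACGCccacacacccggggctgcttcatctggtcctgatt
Plod1: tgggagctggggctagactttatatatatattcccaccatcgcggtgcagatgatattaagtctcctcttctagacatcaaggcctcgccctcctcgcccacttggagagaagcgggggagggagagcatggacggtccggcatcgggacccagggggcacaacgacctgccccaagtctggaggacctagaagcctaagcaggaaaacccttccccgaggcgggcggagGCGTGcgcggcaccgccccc
Plod3: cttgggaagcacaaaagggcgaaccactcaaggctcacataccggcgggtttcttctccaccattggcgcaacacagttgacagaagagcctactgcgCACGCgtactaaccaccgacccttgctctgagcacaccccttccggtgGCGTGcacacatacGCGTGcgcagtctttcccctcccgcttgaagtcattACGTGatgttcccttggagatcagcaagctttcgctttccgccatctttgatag

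ACGTG was found in 4 of the 6 promoters (Plod3, P4ha1, P4ha2 and Serpinh1) and in 16.6% of all 32851 promoters of this length, and GCGTG in 5 of 6 (all but Serpinh1) and in 28.2% of all. Each of the 6 therefore held at least 1 of these cores. The share of all promoters with at least 1 of them was not computed, so this count has no background beside it. The 6 promoters had a GC content of 55.6% to 70%, against a median of 52.4% over all promoters, and both cores contain CpG. Pcolce and Plod1, whose changes had opposite signs, each held a single GCGTG. Neither the part of GC content in the matches nor the relation of the cores to the changes was tested. The core of the heat shock element, GAANNTTC, was in 0 of the 6 and in 6.69% of all promoters, and the endoplasmic reticulum stress element in 0 of the 6 and in 0.113% of all. Both strands were searched, and none of the marked matches overlapped.

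The chaperone and the enhancer came first in level. Serpinh1 (ENSMUSG00000070436, chromosome 7, 99345376 to 99353239, minus strand) encodes HSP47, a collagen-specific chaperone of the endoplasmic reticulum. It was at 435.7 FPKM in WT and 185.7 in Postn-DTR, 2.35-fold lower with a change of -1.23. Counting error alone was small, with about 19532 and 8610 fragments and a 95% interval of the Postn-DTR to WT ratio from 0.415 to 0.437. Of all genes compared, 2.03% had a more negative change.

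Pcolce (ENSMUSG00000029718, chromosome 5, 137605103 to 137613784, minus strand) encodes a secreted glycoprotein that has no protease activity of its own and raises the activity of the procollagen C-proteinase BMP1. It was at 232.4 FPKM in WT and 98.7 in Postn-DTR, 2.35-fold lower with a change of -1.23. The 95% counting interval of the ratio was 0.408 to 0.443. The values of Pcolce and Serpinh1 thus lay side by side in change although the levels differed, and these were the only 2 of the 10 genes past the 2-fold limit in the lower direction. The protease that Pcolce serves moved less. Bmp1 was at 63.1 and 54.7 FPKM, so that Pcolce stood at 3.68 times Bmp1 in WT and 1.8 times in Postn-DTR. The second enhancer gene, Pcolce2, was at 10.8 and 6.18 FPKM, and Pcolce held 95.6% of the summed enhancer FPKM in WT and 94.1% in Postn-DTR.

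The lysyl oxidases moved apart. Lox, the founding enzyme of the family, was at 20.7 FPKM in WT and 53.9 in Postn-DTR, 2.6-fold higher with a change of 1.34. About 2057 and 5534 fragments stood behind these values, which gave a 95% counting interval of the ratio from 2.47 to 2.74. Of all genes compared, 2.17% had a higher change, and Lox moved from the eighth to the sixth place among the 10 genes. Loxl1 (ENSMUSG00000032334, chromosome 9, 58287738 to 58313186, minus strand), whose product is known for its role on elastic fibres, was the most abundant oxidase in both libraries, at 79.0 and 90.5 FPKM. Its change of 0.19 turned to -0.14 under the same rescaling, so it had no stable direction. Loxl2 (ENSMUSG00000034205, chromosome 14, 69609068 to 69695834, plus strand), which acts on basement membrane collagen IV among other substrates, was at 33.0 and 24.4 FPKM, 1.35-fold lower with a change of -0.42. Loxl3 (7.96 and 6.71 FPKM) and Loxl4 (1.84 and 1.57), outside the 10 genes, had changes of -0.22 and -0.15.

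Within the family, shares do not depend on how the libraries are scaled. The 5 oxidases summed to 142.6 FPKM in WT and 177.1 in Postn-DTR. Lox accounted for 14.5% of this sum in WT and 30.4% in Postn-DTR, a gain of 15.9 percentage points. Loxl2 went from 23.2% to 13.8%, and the order of these oxidases was thereby exchanged. Loxl1 held 55.4% and 51.1%. This small decrease turned to a gain of 8.6 points when Lox was left out of the sum.

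The lysyl hydroxylases also differed among themselves. Plod1 (ENSMUSG00000019055, chromosome 4, 147909753 to 147936767, minus strand), which hydroxylates lysines of the collagen helix, was at 36.1 FPKM in WT and 63.0 in Postn-DTR, 1.75-fold higher with a change of 0.79. Plod3 (ENSMUSG00000004846, chromosome 5, 136987019 to 136996648, plus strand), a hydroxylase that also glycosylates hydroxylysine, was at 49.7 and 73.9 FPKM, with a change of 0.56. Of its exonic bases 11.7% are shared with Znhit1 on the opposite strand, at 31.6 and 35.9 FPKM, and whether strand was used in quantification was not stated. Of the other 9 genes, none shares more than 6.42% of its exonic bases with another annotated gene. Plod2 (ENSMUSG00000032374, chromosome 9, 92542223 to 92608428, plus strand) hydroxylates lysines in the collagen telopeptides, the ends at which crosslinks form. It was at 13.03 FPKM in WT and 8.46 in Postn-DTR, 1.54-fold lower with a change of -0.57. None of these 3 changes reached 2-fold, and each kept its sign under every alternative scaling.

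Plod1 and Plod3 were thus higher and Plod2 lower in the Postn-DTR library. Plod2 made up 13.2% of the summed Plod FPKM in WT and 5.82% in Postn-DTR, Plod1 36.5% and 43.4%, and Plod3 50.3% and 50.8%. Fkbp10, a prolyl isomerase known to be needed for telopeptide lysyl hydroxylation, was at 33.8 and 43.9 FPKM, so that Plod2 stood at 0.386 times Fkbp10 in WT and 0.192 times in Postn-DTR. Tmem38b, an endoplasmic reticulum cation channel whose loss disturbs lysyl hydroxylation, had the highest change of the other processing genes, at 8.78 and 15.2 FPKM (0.73).

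Prolyl 4-hydroxylase is a tetramer of catalytic alpha subunits and of P4HB, which is protein disulfide isomerase. P4ha1 (ENSMUSG00000019916, chromosome 10, 59323296 to 59373304, plus strand) was at 26.6 FPKM in WT and 16.1 in Postn-DTR, 1.66-fold lower with a change of -0.69, and 6.57% of all genes had a more negative change. P4ha2 (ENSMUSG00000018906, chromosome 11, 54100095 to 54131665, plus strand) was at 10.1 and 11.5 FPKM. Its 95% counting interval of the ratio, 0.999 to 1.29, included no change, and its change of 0.17 became -0.14 at equal totals. P4ha1 made up 72.2% of the summed alpha subunits in WT and 57.8% in Postn-DTR and P4ha2 27.4% and 41.3%. P4hb, which has many clients besides collagen, was at 290.2 and 388.9 FPKM. The ratio of P4ha1 plus P4ha2 to P4hb was 0.127 in WT and 0.0709 in Postn-DTR. P4ha3 was at 0.119 and 0.25 FPKM, under the minimum.

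**Figure D2:**
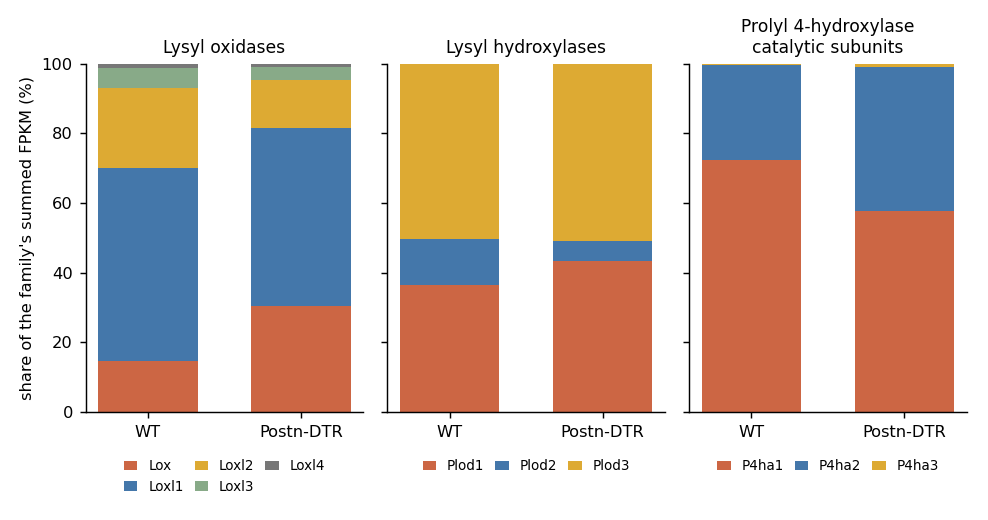
Share of the summed FPKM of each enzyme family (percent) taken by each gene, in the WT and the Postn-DTR library, 1 library per bar. The share of Lox goes from 14.5% to 30.4%, that of Plod2 from 13.2% to 5.82%, and that of P4ha1 from 72.2% to 57.8%.

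The substrates of these enzymes were examined next, since a change in an enzyme can be read against its collagen. Of 14 collagen and elastin genes 13 had a change below 0, and the median change was -0.63, beside 0.02 over all genes. Col5a3 (34.5 and 7.46 FPKM), Col15a1 (152.8 and 57.7) and Col6a3 (46.9 and 20.9) were 2-fold lower and none was 2-fold higher. Over all genes compared, 3.12% were 2-fold lower and 3.88% higher. Elastin, a substrate of the oxidases and not of the chaperone, was the exception, with Eln at 106.9 and 133.8 FPKM. That change of 0.32 is no larger than the 0.34 by which the scaling to equal totals shifts a highly expressed gene.

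The summed FPKM of Col1a1, Col1a2 and Col3a1 was 2093 in WT and 1369 in Postn-DTR, 1.53-fold lower. Read against this sum within each library, a ratio that scaling does not touch, Serpinh1 went from 20.8% of the collagen level to 13.6%, and Pcolce from 11.1% to 7.21%. Per collagen transcript they were 1.53-fold and 1.54-fold lower. P4ha1 (1.27% and 1.17%) and Plod2 (0.623% and 0.618%) had nearly the same ratio to collagen in both libraries. Lox went the other way, from 0.990% to 3.94%, or 3.98-fold higher per collagen transcript. Plod1 was 2.67-fold, Plod3 2.27-fold, Loxl1 1.75-fold and P4ha2 1.74-fold higher. For Loxl2 the ratio had no stable direction, as its log2 change of 0.18 became -0.13 without Col3a1. Read against elastin, Lox was also higher, at 0.194 times Eln in WT and 0.403 times in Postn-DTR, a 2.08-fold difference. Loxl1 was slightly lower against Eln, at 0.739 and 0.676 times, or 1.09-fold. Without Col3a1 the change per collagen transcript was -0.92 for Serpinh1, -0.93 for Pcolce, -0.42 for P4ha1 and -0.32 for Plod2 on the log2 scale, against -0.62, -0.62, -0.12 and -0.01 with it. For the higher genes it was smaller without Col3a1, at 1.69 for Lox against 1.99 with it, and 1.11 against 1.42 for Plod1. Plod3 had 0.88 against 1.18, Loxl1 0.50 against 0.81 and P4ha2 0.49 against 0.80.

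**Figure D3:**
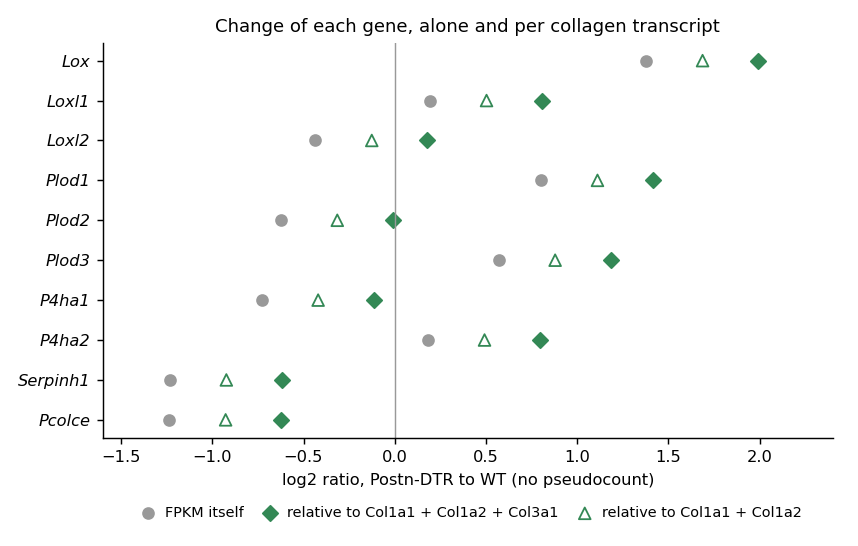
The log2 ratio of Postn-DTR to WT (without pseudocount) for each gene, from its FPKM (circles), relative to the summed FPKM of Col1a1, Col1a2 and Col3a1 (diamonds) and relative to Col1a1 and Col1a2 alone (triangles). Lox, Plod1 and Plod3 lie to the right by all 3 measures and Serpinh1 and Pcolce to the left, whereas Loxl2 changes side.

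The other genes of the pathway were taken from a list of collagen processing genes. Of 31 symbols listed in the libraries 27 passed the minimum. Of these 1 was 2-fold lower and 0 were 2-fold higher, beside 3.12% lower and 3.88% higher over all genes, and the median change was 0.04. The lower gene was P3h2, a prolyl 3-hydroxylase, at 5.41 and 2.19 FPKM with a change of -1.01, just past the limit. The genes named in the rest of this paragraph were chosen after their values were seen. The complex of P3H1, CRTAP and cyclophilin B, which hydroxylates prolines in position 3, showed no common direction, with P3h1 at 18.3 and 15.9 FPKM, Crtap at 76.7 and 107.0, and Ppib at 201.3 and 269.5. Colgalt1, which adds galactose to hydroxylysine, was at 45.3 and 56.9. The procollagen N-proteinases Adamts2 (32.4 and 18.1 FPKM) and Adamts14 (3.92 and 2.04) had changes of -0.81 and -0.70, whereas the third, Adamts3 (1.10 and 1.53), had 0.27. Sparc, a collagen-binding matricellular protein and the most abundant gene of the list, was at 1455 and 897.9 FPKM, a change of -0.70. For export of procollagen from the endoplasmic reticulum, Mia3 (18.8 and 19.6) and Sec24d (28.4 and 32.4) differed little.

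**Figure D4:**
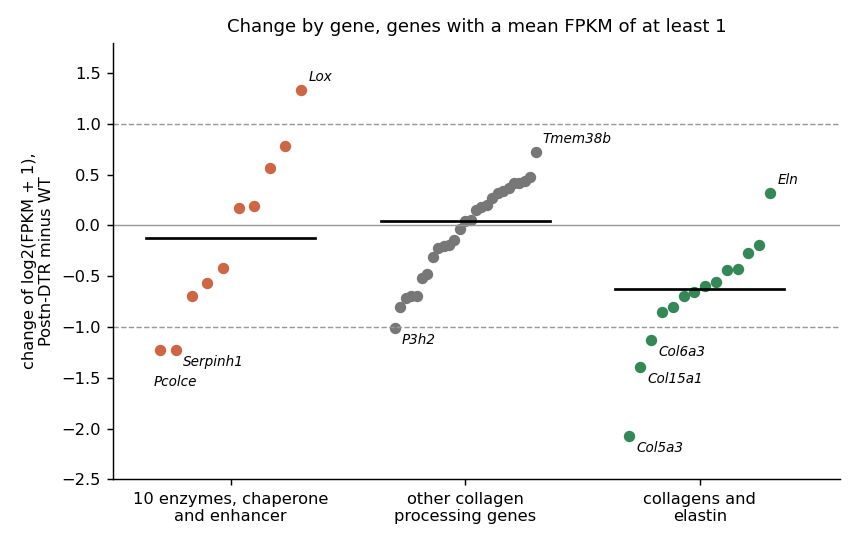
Change on the log2(FPKM + 1) scale (Postn-DTR less WT) for the 10 collagen processing and crosslinking genes, the other 27 collagen processing genes and 14 collagen and elastin genes, sorted within each group, with the median as a black line and 2-fold limits as dashed lines. The medians are -0.13, 0.04 and -0.63, and only Lox lies above the upper limit.

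General chaperones of the endoplasmic reticulum were compared with Serpinh1. Of 10 such genes 0 were 2-fold lower or higher, beside 3.12% and 3.88% of all genes compared. Their changes reached from -0.33 (Calr) to 0.13 (Dnajb9), with a median of -0.05, while Serpinh1 had -1.23. Calr, the most abundant, was at 597.8 and 477.1 FPKM. The ratio of Serpinh1 to P4hb was 1.5 in WT and 0.477 in Postn-DTR. The acinar genes present in the WT library belong to a cell type rich in endoplasmic reticulum, and the part of that RNA in the general chaperone and P4hb values was not tested.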

How the data were processed

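Total RNA of whole omentum was made into stranded TruSeq mRNA libraries per the labels, 1 WT and 1 Postn-DTR, and groups were taken from the genotype labels. The study's RNA-seq methods describe sorted cells and a NEBNext Ultra kit, not whole omentum, so the strandedness rests on the labels alone. The authors deposited FPKM, with 1 value per gene symbol. The submitters' processing notes name TopHat2 2.1.1, Bowtie2 2.2.8, SAMtools 0.1.18, Cuffdiff 2.2.1 and mm10, and the annotation was not given in the sources used here. Changes were computed from log2(FPKM + 1) with Python 3.11.15, numpy 2.4.6 and pandas 2.3.3 where the mean of both libraries reached an FPKM of 1, and scripts were tested on simulated data. No test between genotypes was run.

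To compare the denominators of the libraries, 723 genes with values above 0 but below 0.1 FPKM in each library were used. Of these, 174 had the commonest Postn-DTR to WT ratio, 0.967. Each denominator was fitted separately, on low values of the longer genes among 5676 with 1 transcript. It was the one that brought the implied fragment numbers closest to whole numbers. Of the low values scored, 76.2% in WT and 76.7% in Postn-DTR lay within 0.1 of a whole number. Fragment numbers of a gene used its shortest complete coding transcript in GENCODE M21 (GRCm38), which matched 23310 symbols (95.7%). They are approximate, and the exact binomial 95% intervals cover counting error only.

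The 10 genes and all lists were chosen with earlier results of these data known. Named genes were the 10 genes, list members at least 2-fold changed, the highest and lowest of a list, and the 3 genes nearest in level to the lowest and highest of the 10. Any further gene named was chosen after its values were seen, family members and partners of the 10 included. Ratios to a partner (P4hb, Fkbp10, Bmp1, Eln) were chosen after the values were seen. One gene of the TGF-beta response list is not reported here.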

Additional observations from a re-analysis of the deposited data

How the results depend on the processing

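No replicate could be left out with 1 library per genotype. No paired analysis was possible because the labels carry no shared replicate numbers and each genotype has 1 library. Serpinh1, Pcolce, P4ha1, Plod2 and Loxl2 stayed lower and Lox, Plod1 and Plod3 higher under every alternative scaling. Only the scalings could turn a sign, since a pseudocount cannot and a filter leaves the value of a gene as it is. Over all 7 alternatives of pseudocount, filter and scaling, changes ran from -1.56 to -1.21 for Serpinh1, -1.56 to -1.19 for Pcolce and 1.01 to 1.38 for Lox. Removing acinar genes and making the totals equal, where the Postn-DTR FPKM sum was 1.26 times the WT sum, shifted the median of all genes by -0.30. The Postn-DTR sum was already the larger with acinar genes kept, at 671882 FPKM against 542190 in WT. This rescaling reversed Loxl1 (-0.14) and P4ha2 (-0.14) and took P4ha1 to -1.01, past 2-fold. It moved the medians to -0.44 for the 10 genes, -0.26 for the other processing genes and -0.96 for the collagens. Among the other processing genes the number 2-fold lower went from 1 to 3, while the share of all genes compared went from 3.12% to 5.71%. Scaling to the 75th percentile turned the median of the other processing genes to -0.013. With a minimum of 10 for the mean FPKM that median was 0.17 and 0 of those genes were lower, as with a pseudocount of 5. At 1.5-fold, 2 of the 10 genes were higher, and 5 of the other processing genes were lower and 1 higher. Of all genes compared, 8.84% were lower and 9.86% higher at that limit. At 3-fold none of the 10 was lower (0) or higher (0), nor was any other processing gene lower. Over all genes compared, 1.17% were lower and 1.52% higher at 3-fold. Leaving out P4ha1 turned the share gain of P4ha2 to -0.96 points, in a family then made up of P4ha2 and the barely expressed P4ha3. Leaving out Lox turned the share difference of Loxl1 to 8.6 points, and leaving out Col3a1 turned Loxl2 per collagen transcript to -0.13.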

Other observations

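Genes known to respond to signals that also act on these enzymes were examined as lists. Hypoxia induces several collagen hydroxylases and lysyl oxidases. Of 14 hypoxia response genes 1 was 2-fold higher and 0 were 2-fold lower, beside 3.88% and 3.12% of all genes compared. The median change was -0.04, beside 0.02 over all genes. The higher gene was Bnip3, a mitophagy receptor, at 83.8 FPKM in WT and 202.4 in Postn-DTR. The lowest change was that of Vegfa, the angiogenic growth factor, at 79.7 and 51.6 FPKM. TGF-beta induces Lox and many matrix genes. Of 7 TGF-beta response genes 2 were 2-fold higher and 1 was 2-fold lower, beside the same shares of all genes. With 5 changes above 0 and 2 below, the median change was 0.41, beside 0.02 over all genes. Thbs1, encoding thrombospondin 1, was at 21.8 and 189.6 FPKM, and Ctgf at 18.2 and 88.2. The 2-fold lower gene was Ltbp2, which encodes a microfibril-associated protein, at 12.4 and 5.63 FPKM. These genes also respond to other stimuli, macrophage markers were higher in the same library, and the relation of either list to Lox was not tested.

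With 2 libraries, likeness of pattern can only be the distance between genes in their pair of log2(FPKM + 1) values. The 3 genes nearest to Lox were C5ar1, the complement C5a receptor of myeloid cells (21.1 and 54.3 FPKM), Per1, a clock gene that glucocorticoids induce (21.5 and 53.1), and Gsr, glutathione reductase (19.7 and 52.6), at distances of 0.0243 to 0.0756. The nearest to Pcolce were Mpc1, a subunit of the mitochondrial pyruvate carrier (249.5 and 100.6), the fatty acid binding protein gene Fabp5 (199.6 and 86.3) and Acp5, tartrate-resistant acid phosphatase (202.9 and 120.7), at 0.105 to 0.347.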
